A study of Mus musculus with 2 samples.

Results

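The genes described here are 55 axon guidance genes of the mouse, out of 16908 genes with at least 3 probes on the promoter arrays. They were taken by name, with no measured value in the rule, though earlier results of these data were known. The families were the Eph receptors, ephrins, semaphorins, plexins, neuropilins, Slits, Robos, netrins and the netrin receptors Unc5a to Unc5d. Of 69 RefSeq gene symbols of these families, 55 were on the arrays under that name. Dcc, the classical attractive netrin receptor, Robo1 and 10 others are not analysed here, and 2 further netrins under older array names are given at the end. Each gene had between 15 and 87 probes, with a median of 38 and 2184 probes in all, so that no gene lay near the minimum of 3.

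Chromatin of mouse embryonic stem (ES) cells, the pluripotent cells of the early embryo, was immunoprecipitated (IP) with a monoclonal antibody against Ring1B and hybridised together with input DNA, the whole chromatin taken without antibody. IP DNA carried Cy5 and input DNA carried Cy3, both after amplification by linker-mediated PCR. The 2 arrays were different slides of one promoter set, with 28 of the genes on slide 1 and 27 on slide 2, and shared 0 probes. Each promoter was therefore measured once, in cells with no stated genotype or treatment, with no replicate, mock IP or dye swap and hence no test.

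Ring1B is the catalytic subunit of Polycomb repressive complex 1, which ubiquitylates histone H2A and is known in ES cells for occupying promoters of developmental genes that are kept silent, many of them rich in CpG dinucleotides. Axon guidance genes encode the cues and receptors by which growing axons steer. Ephrins and Eph receptors act at cell contact, semaphorins act through plexins and neuropilins, Slits repel through Robo receptors, and netrins attract or repel through DCC and UNC5 receptors.

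A gene's value is the mean log2 ratio of IP over input DNA across its probes, centred on the median probe of its slide, with the SD over those probes. This SD describes how the ratio varies along a promoter and is no replicate error. A value of 1 means 2-fold above the median probe. The slides gave 237054 and 237168 usable probes, with an SD over probes of 1.33 and 1.44, and precision is limited by there being 1 array per promoter. Input signal was well above background at 74.2% and 76.3% of them. Both channels stood at the floor value given to very dim spots at 18.2% and 15.5%, and such a probe carries no measured ratio. Among the 55 genes the share of floor probes ran between 0% and 47.2%, highest at Sema3c. The titles name ES cells, whereas the source names begin with Muscle. The promoter means were -0.21 ± 1.47 for Pou5f1 and 0.32 ± 1.25 for Sox2, both pluripotency genes, and -0.48 ± 1.49 for Myod1, 0.05 ± 0.85 for Myf5 and -0.10 ± 1.07 for Myog, the muscle regulators (SD over 36, 38, 40, 43 and 36 probes). Which tissue label is right was not tested.

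To show the sequence around these starts, the RefSeq windows (GRCm38.p6, 250 bases before to 50 after a start) are printed for the 3 highest genes, leaving out Sema6a, and the lowest one whose window holds an array probe. CpG dinucleotides are in capitals. The windows are chr1:62703067-62703366 for Nrp2, chr10:93640799-93641098 for Ntn4, chr16:35541112-35541411 for Sema5b and chr9:37401722-37402021 for Robo4, all on the plus strand.
Nrp2: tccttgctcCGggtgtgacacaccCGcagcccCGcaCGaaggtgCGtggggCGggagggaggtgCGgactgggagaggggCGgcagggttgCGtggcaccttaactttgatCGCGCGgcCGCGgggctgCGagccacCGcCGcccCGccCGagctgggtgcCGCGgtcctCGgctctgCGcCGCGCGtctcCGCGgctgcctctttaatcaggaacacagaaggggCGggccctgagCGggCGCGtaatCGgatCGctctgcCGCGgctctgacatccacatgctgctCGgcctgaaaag
Ntn4: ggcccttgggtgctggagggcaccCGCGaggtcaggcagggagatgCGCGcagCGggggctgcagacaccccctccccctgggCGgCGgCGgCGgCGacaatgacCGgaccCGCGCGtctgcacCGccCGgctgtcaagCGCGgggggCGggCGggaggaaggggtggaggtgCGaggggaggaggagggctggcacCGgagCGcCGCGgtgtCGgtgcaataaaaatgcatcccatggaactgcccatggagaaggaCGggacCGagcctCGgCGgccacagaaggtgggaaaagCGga
Sema5b: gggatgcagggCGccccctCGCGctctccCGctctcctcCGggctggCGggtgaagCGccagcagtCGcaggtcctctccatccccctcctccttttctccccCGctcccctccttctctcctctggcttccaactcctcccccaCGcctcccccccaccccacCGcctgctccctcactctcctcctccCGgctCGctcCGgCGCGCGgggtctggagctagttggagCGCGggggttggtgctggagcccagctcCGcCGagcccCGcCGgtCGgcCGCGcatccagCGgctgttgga
Robo4: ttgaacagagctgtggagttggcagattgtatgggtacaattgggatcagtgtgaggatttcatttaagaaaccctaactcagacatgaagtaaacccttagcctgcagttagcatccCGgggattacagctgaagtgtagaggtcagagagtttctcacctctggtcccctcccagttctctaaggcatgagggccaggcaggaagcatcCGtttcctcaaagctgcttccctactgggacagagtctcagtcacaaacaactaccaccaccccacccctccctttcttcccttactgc
The Nrp2 window held 37 CpG, a number reached by 5.58% of 32851 RefSeq windows of this length. The Ntn4 window held 31 CpG and the Sema5b window 27, reached by 10.6% and 15.5% of windows. The Robo4 window held 2 CpG, which 85.9% of windows reach. The median was 18 CpG over 59 windows of 48 of the genes and 7 CpG over all windows. The single probe inside each window read 0.29 at Nrp2, -0.47 at Ntn4, 0.56 at Sema5b and -0.83 at Robo4. These are single probes of windows placed by RefSeq, and the start given in the array files can differ from that of RefSeq: the Nrp2 probe lay at -360 bp from the array's start, next to which other Nrp2 probes were high.

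To show single probes, the deposited sequences of the highest probe of Ntn1, Sema5b and Nrp2 and of the lowest probe of Ntn1 and Sema4d are given, again with CpG in capitals. Their strand and genome build are not given in the sources used here, and the positions are those of the array files.
Ntn1 highest: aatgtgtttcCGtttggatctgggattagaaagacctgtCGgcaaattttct
Sema5b highest: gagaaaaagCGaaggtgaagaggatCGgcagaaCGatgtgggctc
Nrp2 highest: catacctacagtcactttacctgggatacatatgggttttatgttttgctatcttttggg
Ntn1 lowest: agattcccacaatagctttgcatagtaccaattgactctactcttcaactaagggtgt
Sema4d lowest: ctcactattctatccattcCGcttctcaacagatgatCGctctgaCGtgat
The highest Ntn1 probe, at chr11:68466311-68466362, lay 1294.5 bp inside the gene and had an intensity of 14530 in IP DNA and 1105 in input DNA. Its log2 ratio was 3.56. The highest Sema5b probe, at chr16:35217216-35217260, lay 1103.25 bp inside the gene and had an intensity of 19110 in IP DNA and 1297 in input DNA, a log2 ratio of 3.72. The highest Nrp2 probe, at chr1:62946179-62946238, lay 1842 bp inside the gene and had an intensity of 10120 in IP DNA and 691.9 in input DNA, a log2 ratio of 3.64. The high probes were thus inside the genes and held 2, 3 and 0 CpG themselves. The lowest Ntn1 probe, at chr11:68469297-68469354 and -1694 bp from the start, had 248.9 in IP DNA and 2934 in input DNA, a log2 ratio of -3.72. The lowest Sema4d probe, at chr13:50826239-50826289, had 252.1 in IP DNA and 3043 in input DNA, a log2 ratio of -3.75, and lay 1425 bp inside the gene.

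Which of these promoters carried Ring1B-enriched DNA was asked first over the whole tiled stretch. Of the 55 genes, 4 had a mean of at least 1 (7.27%), where 1.99% of all genes did, and 0 had a mean of -1 or less, where 1.86% of all genes did. The 4 were Nrp2, Sema6a, Ntn1 and Ntn4. A mean of at least 0.5 was reached by 17 of the 55 (30.9%) and by 7.62% of all genes, and a mean of -0.5 or less by 2 and by 15.5% of all genes. The mean was above 0 in 36 of the 55 (65.5%) and in 39.2% of all genes. The median was 0.15 over the 55 genes and -0.10 over all genes. On slide 1, 1 of 28 genes was at or above 1, against 1.63% of that slide's genes, and on slide 2, 3 of 27, against 2.36%. Most promoters of these families thus had whole-stretch means between -0.5 and 0.5.

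**Figure D1:**
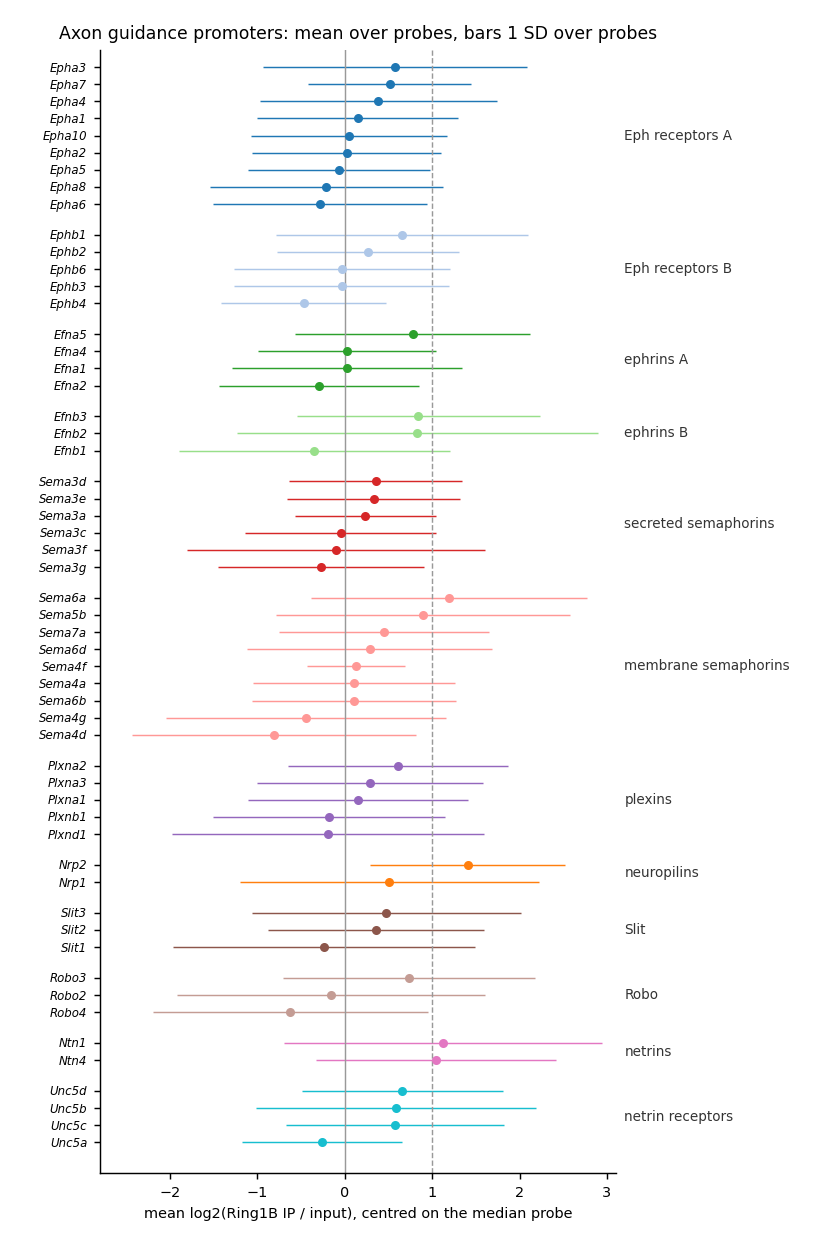
Mean log2 ratio of Ring1B IP over input DNA (x axis, centred on the slide's median probe) of each of the 55 genes, grouped by family and ordered by value, with bars of 1 SD over the gene's probes. Only Nrp2, Sema6a, Ntn1 and Ntn4 lie right of the dashed line at 1, and the bars are wider than the spread between most genes.

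Among the secreted cues, both netrins of the 55 genes were high. The netrins Ntn3 and Ntn5, on the arrays under older names, were not, and are given at the end. Ntn1, the founding midline attractant, averaged 1.13 ± 1.82 over 33 probes, with a lowest, median and highest probe of -3.72, 1.21 and 3.56. Its probes were split, with 19 high ones (a ratio of at least 1) and 5 low ones (a ratio of -1 or less). Ntn4, a netrin related to laminin chains, averaged 1.05 ± 1.37 over 36 probes, with a lowest, median and highest probe of -3.32, 1.11 and 3.64, and 19 of them were high. Both genes were just past the threshold over the whole stretch, and the values of single probes overlapped with those of the lowest genes.

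The Slits, secreted repellents of the midline, lay lower. Slit3 averaged 0.48 ± 1.54 over 54 probes and Slit2 0.36 ± 1.24 over 53, whereas Slit1 averaged -0.24 ± 1.73 over 40. Slit1 had 10 high and 12 low probes. The 2 Slits with positive means had more high than low probes, with 22 against 11 at Slit3 and 17 against 6 at Slit2.

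Of 6 secreted class 3 semaphorins, which bind neuropilins, 0 had a mean of at least 0.5, where 7.62% of all genes did. They ran between 0.36 ± 0.99 for Sema3d (40 probes) and -0.27 ± 1.18 for Sema3g (40 probes), with a median of 0.10. Sema3a, the classical growth cone collapsing factor, averaged 0.24 ± 0.81 over 47 probes, of which 40.4% were at the floor in both channels. Its lowest, median and highest probe were -1.99, 0.08 and 2.53. Sema3f had wide probe values for a mean of -0.10 ± 1.70 over 57 probes, with 16 high and 17 low ones.

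Of 9 membrane or membrane-anchored semaphorins, 1 had a mean of at least 1, where 1.99% of all genes did. Sema6a, a transmembrane semaphorin of chromosome 18 whose sequence is not shown, averaged 1.20 ± 1.58 over 40 probes, with a lowest, median and highest probe of -1.85, 1.17 and 5.35. Sema5b, which carries thrombospondin repeats, averaged 0.89 ± 1.68 over 36 probes. The class also held the lowest of the 55 genes: Sema4d averaged -0.81 ± 1.62 over 32 probes, with a lowest, median and highest probe of -3.75, -0.76 and 3.22. The median signal over Sema4d probes was 375 in IP DNA and 830.5 in input DNA, whereas it was 1859 in IP DNA and 702 in input DNA at Sema6a. Sema4g averaged -0.44 ± 1.60 over 51 probes, and the other 5 of the class ran between 0.10 and 0.45.

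The ephrins, membrane-bound ligands of the Eph receptors, ran between 0.84 and -0.35, with high and low genes in both classes. Of the 3 transmembrane B ephrins, Efnb3 averaged 0.84 ± 1.39 over 20 probes and Efnb2, the arterial partner of Ephb4, averaged 0.83 ± 2.07 over 28, whereas Efnb1, on the X chromosome, averaged -0.35 ± 1.55 over 45. Probes of Efnb2 reached from -4.08 to 5.04 around a median of 1.03, the widest SD of the 55 genes. These means cover unlike stretches. Over 1000 bp upstream of the start Efnb2 was not tiled and Efnb3 had 3 probes, whereas Efnb1 averaged -0.96 over 22. Within 1000 bp of the start Efnb2, Efnb3 and Efnb1 averaged 1.51, 0.94 and 0.05. Of the 4 lipid-anchored A ephrins, Efna5, a cue of retinotectal mapping, averaged 0.78 ± 1.35 over 87 probes, with a lowest, median and highest probe of -2.03, 0.62 and 3.85. Efna4 and Efna1 averaged 0.03 ± 1.02 and 0.03 ± 1.31 over 15 and 50 probes, and Efna2 averaged -0.29 ± 1.15 over 32. One ephrin of each class was thus below 0.

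Among the receptors, Nrp2 was highest. This co-receptor of class 3 semaphorins and VEGF had the largest mean of the 55 genes and ranked 145 of all 16908. It averaged 1.41 ± 1.11 over 40 probes, with a lowest, median and highest probe of -0.87, 1.58 and 3.64, and a median signal of 1449 in IP DNA and 439.4 in input DNA. No Nrp2 probe was low, and 27 were high. Nrp1, the Sema3a receptor, averaged 0.51 ± 1.71 over 42 probes, with a lowest, median and highest probe of -3.84, 0.64 and 3.70, and had 18 high and 6 low probes. Besides Nrp2, 8 other receptors were above Nrp1, Robo3 the highest of them, and Nrp1 was above its ligand Sema3a.

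Of the 4 UNC5 receptors, which mediate repulsion by netrins, 3 had a mean of at least 0.5, where 7.62% of all genes did. Unc5d averaged 0.66 ± 1.15 over 44 probes, Unc5b 0.59 ± 1.60 over 37 and Unc5c 0.57 ± 1.25 over 37. Unc5a averaged -0.26 ± 0.92 over 34, and only 1 of its probes was high, against 14, 17 and 14 at the others. Unc5a was the member that stood apart.

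The 3 measured Robo receptors diverged. Robo3, a receptor of commissural axons before midline crossing, averaged 0.74 ± 1.44 over 40 probes. Robo2 averaged -0.16 ± 1.76 over 40, with 11 high and 11 low probes. Robo4, an endothelial member of the family, averaged -0.62 ± 1.58 over 32 probes and was second lowest of the 55 genes, with 5 high and 11 low probes.

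Plexins, the signalling receptors of semaphorins, had 0 of 5 genes at or above 1, where 1.99% of all genes were, and a median of 0.15. Plxna2 was the highest at 0.61 ± 1.26 (29 probes) and Plxnd1 the lowest at -0.19 ± 1.79 (42 probes). Plxna3, Plxna1 and Plxnb1 lay between, at 0.29, 0.15 and -0.18.

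The Eph receptors, receptor tyrosine kinases bound by ephrins, had 0 of 14 genes at or above 1, where 1.99% of all genes were. With 14 genes, a count of 0 does not set the family apart. The 9 A receptors ran between 0.57 ± 1.51 for Epha3 (40 probes) and -0.28 ± 1.23 for Epha6 (40 probes) with a median of 0.05, and Epha7 was the other one past 0.5, at 0.51 ± 0.93 over 47 probes. Epha5, a receptor for ephrin-A5, averaged -0.06 ± 1.04 over 74 probes with a median probe of -0.02, below its ligand. Of these probes 36.5% were at the floor in both channels, and 29 lay in a stretch deep inside the gene. Within 1000 bp of the start Epha5 averaged 0.85 over 12 probes and Efna5 1.265 over 10. The 5 B receptors ran between 0.65 ± 1.44 for Ephb1 (38 probes) and -0.47 ± 0.94 for Ephb4 (31 probes) with a median of -0.03. Ephb4, the venous receptor of ephrin-B2, had 1 high and 8 low probes, and its lowest, median and highest probe were -2.56, -0.23 and 1.01. In the pairs Efna5 and Epha5, and Efnb2 and Ephb4, the ligand's mean was the higher, whereas in Sema3a and Nrp1 it was the receptor's. Efnb2 was not tiled over 1000 bp upstream, where Ephb4 averaged -0.75 over 11 probes. Within 1000 bp of the start Efnb2 averaged 1.51 and Ephb4 -0.27.

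Signal was then placed relative to the transcription start, with negative distances upstream. Within 1000 bp of the start, 17 of the 54 genes with at least 3 probes there had a mean of at least 1 (31.5%), against 8.2% of all genes, and 1 had a mean of -1 or less, against 6.34% of all genes. On slide 1 the count was 7 of 28, against 7.1% of that slide's genes, and on slide 2 it was 10 of 26, against 9.47%. Over 1000 bp upstream of the start, 1 of 52 genes was at or above 1, against 2.17% of all genes, and 2 were at or below -1, against 5.89%. Up to 2500 bp inside the start, 18 of 54 were at or above 1, against 6.01% of all genes. The mean near the start was above that upstream in 46 of the 52 genes with both values (88.5%), and in 60.5% of all genes. The median near the start was 0.58 over the 54 genes and 0.03 over all genes.

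By role, the 17 comprised both netrins of the 55 genes, both neuropilins, 3 of 4 UNC5 receptors, 2 of 3 Slits, 1 of 3 Robos, 3 of 8 membrane semaphorins, 1 of 5 plexins, 1 of 3 B ephrins, 1 of 4 A ephrins and 1 of 5 EphB receptors. The EphA receptors and the secreted semaphorins had 0 of 9 and 0 of 6, where 8.2% of all genes were at or above 1. Families this small are not set apart by a count of 0. Near the start, Ntn1 averaged 2.40 over 9 probes, Sema6a 1.91 over 11, Nrp2 1.79 over 11, Efnb2 1.51 over 10, Sema5b 1.5 over 9 and Nrp1 1.46 over 11. Upstream, Ntn1 averaged 0.00 over 17 probes, Sema6a 0.38 over 18, Nrp2 0.74 over 19, Sema5b -0.15 over 19 and Nrp1 0.07 over 23. All 5 promoters were higher around the start than upstream, an order that listing the highest means near the start favours. Nrp2 had the highest upstream mean of them. Ntn4 averaged 1.01 near the start over 12 probes and 0.54 upstream over 16. Unc5c, Unc5b and Unc5d averaged 1.35, 1.29 and 1.18 near the start, and Slit3 and Slit2 averaged 1.19 and 1.06. The Slit2 probe in the RefSeq start window lay at -1756 bp from the array's start and read -0.50. Slit2's place among the 17 thus holds for the array's start. Several genes with low whole-stretch means were among the 17, such as Robo2 at 1.23 over 9 probes and Sema4g at 1.23 over 9. Of the 6 genes with the reverse order, Robo3 had -0.07 near the start over 9 probes and 1.12 upstream over 25. The 2 probes in the RefSeq start window of Robo3, at -3280 and -3170 bp from the array's start, read 1.92 and 0.48. This order, and Robo3 being the 1 gene at or above 1 upstream, thus depend on the start used. Robo4 was the lowest near the start, at -1.51 over 9 probes, and averaged 0.03 upstream over 16. The others were Epha1, Plxna3, Plxnb1 and Sema3g.

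**Figure D2:**
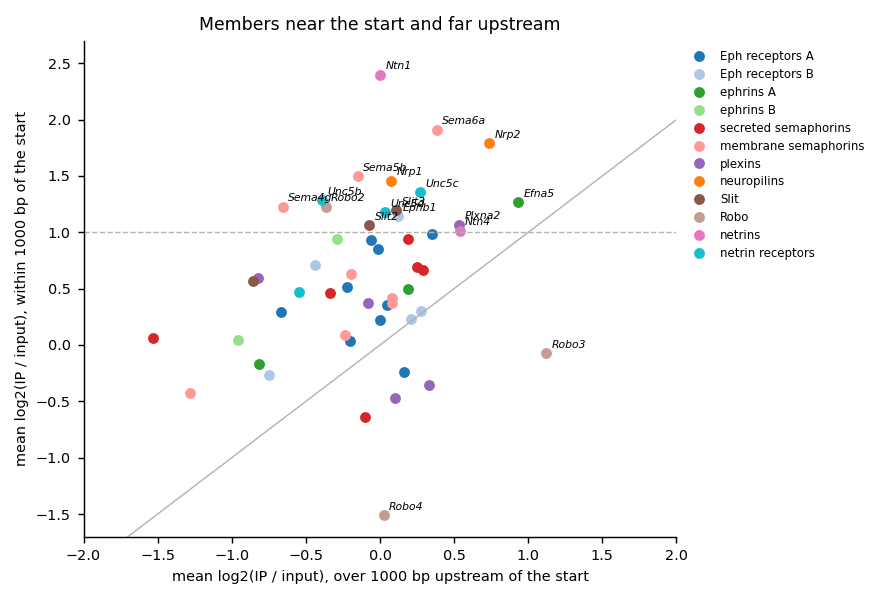
Mean log2 ratio of IP over input DNA within 1000 bp of the transcription start (y axis) against the mean over 1000 bp upstream (x axis) for the 52 genes with both, coloured by family. Points above the diagonal, 46 of 52, were higher near the start, the dashed line marks 1, and Robo3 and Robo4 are among the 6 below the diagonal.

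Averaged in bins of 500 bp, the genes' mean ratio peaked inside the gene. It was -0.40 between -2500 and -2000 bp, 0.40 in the 500 bp before the start, 0.64 in the 500 bp after it, 0.91 between 500 and 1000 bp and 0.41 between 2000 and 2500 bp. Over all genes the highest bin was 0.06, also between 500 and 1000 bp. The 6 netrin and UNC5 genes among the 55 reached 1.93 between 500 and 1000 bp and the 14 Eph receptors 0.57. The share of probes at the floor in both channels moved with this position, at 26.7% of the 55 genes' probes between -3500 and -3000 bp and 2.60% between 500 and 1000 bp, and its part in the profile was not tested.

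**Figure D3:**
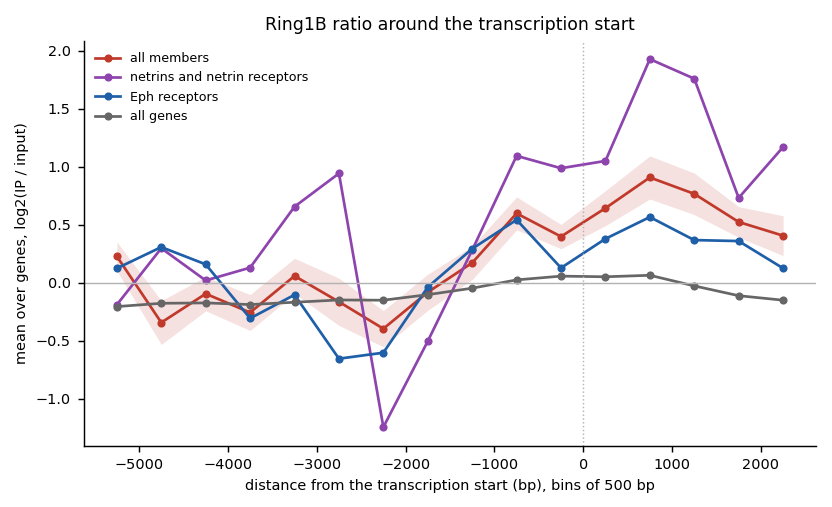
Mean log2 ratio of IP over input DNA (y axis) in bins of 500 bp around the transcription start (x axis, negative upstream) for the 55 genes, with a band of 1 SE over genes, for the netrins and UNC5 receptors, for the Eph receptors and for all genes. The 55 genes peak at 0.91 between 500 and 1000 bp inside, where all genes stand at 0.06. The band reflects spread between different genes, each measured once, and is no replicate error.

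Regions were runs of at least 3 consecutive probes whose running mean over 500 bp on either side was at least 1. Such a region reached 2000 bp at 8 of the 55 genes (14.5%), against 3.04% of all genes, and 1000 bp at 18 (32.7%), against 8.26%. Runs at or below -1, taken the same way, reached 2000 bp at 2 genes, against 0.988%, and 1000 bp at 5, against 10.3%. The 55 genes included 32 with any high run, against 29.4% of all genes, and 22 with any low run, against 47%. Both kinds were found at 11 genes and neither at 12. Medians were 38 probes and 5.56% floor probes per gene over the 55, and 28 and 12.5% over all genes. Among genes with at least 20 probes, a high region of 2000 bp was found at 14.8% of these families and 3.61% of all genes. One of 1000 bp was found at 33.3% and 9.69%. On slide 1, 3 of 28 genes had a region of at least 2000 bp, against 2.67% of that slide's genes, and on slide 2, 5 of 27, against 3.42%. The count of 8 depends on the background correction and centring, and was 17 after normexp, a model-based background correction, where 4.22% of all genes had one.

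The longest region, at Nrp2, covered 4671 bp at chr1:62942362-62947032, from -1975 to 2641 bp of the start, with a mean of 1.91 over 26 probes. That of Sema6a covered 3460 bp from -634 to 2768 bp with a mean of 1.87 over 20 probes. That of Robo3 covered 3087 bp at chr9:37361180-37364266 with a mean of 1.69 over 18 probes. This region of Robo3 ran from -5617 to -2584 bp, wholly upstream of the array's start, but held the 2 probes of the RefSeq start window. That of Ntn1 covered 2910 bp at chr11:68465314-68468223, from -566 to 2288 bp, with a mean of 2.33 over 16 probes. At Nrp2, Sema6a and Ntn1 the region thus spanned the start and ran far into the gene. Efnb2 had one of 2821 bp from -79 to 2690 bp, with a mean of 1.63 over 16 probes, some of which are also annotated to 4921522P10Rik. Unc5b, Unc5d and Sema5b had regions of 2372, 2299 and 2152 bp with means of 1.78, 1.77 and 2.45, all starting inside the gene, at 118, 285 and 432 bp. Those of Ntn4 and Ephb1 measured 1872 and 1875 bp, and that of Ntn4 ended at the outermost tiled probe, so its full length is unknown. All of the 8 except that of Efnb2 reached the outermost tiled probe, so their lengths are bounded by the array.

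**Figure D4:**
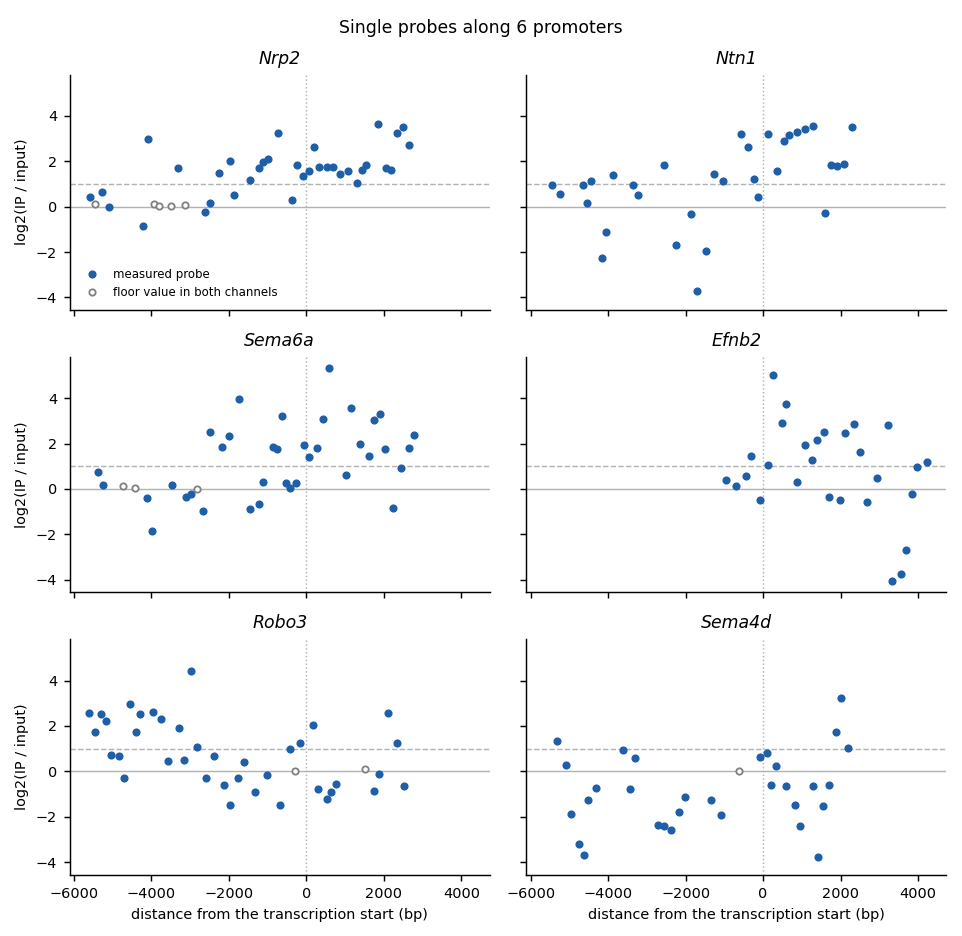
Log2 ratio of IP over input DNA of single probes (y axis) by distance from the transcription start (x axis, negative upstream) at Nrp2, Ntn1, Sema6a, Efnb2, Robo3 and Sema4d, with open points for probes at the floor in both channels and a dashed line at 1. High probes cluster around and inside the start at the first 4, upstream of the array's start at Robo3, and low probes run along Sema4d.

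The longest high run of each of the 32 genes with one lay inside the gene at 22 (68.8%), spanned the start at 7 (21.9%) and lay upstream at 3 (9.38%). Over all 4688 genes with a placed high run, 35.8% lay inside, 20.8% spanned the start and 39.7% lay upstream. Low runs were placed the other way round: of 22, 15 lay upstream, 5 inside and 2 over 6000 bp from the start, against 48.5% upstream and 36.3% inside over all genes. By the array's start, the 3 upstream high runs were those of Robo3, Nrp1 (-1594 to -304 bp) and Plxna2 (-978 to -138 bp). The longest low runs were those of Slit1, 2259 bp from -4908 to -2698 bp with a mean of -2.16, and Sema4g, 2153 bp with a mean of -1.42, from 12224 to 14329 bp inside. Robo4 had a low run of 1047 bp from 426 to 1426 bp inside the gene, with a mean of -2.22. Of the 11 genes with both kinds, 6 had the high run inside and the low run upstream: Efnb1, Sema3f, Sema6d, Slit1, Slit3 and Unc5b. At Sema3f, for example, the high run covered 1710 bp from 806 to 2472 bp with a mean of 1.66, and the low run 812 bp from -3931 to -3175 bp with a mean of -2.71.

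For 7 genes the arrays tiled more than 1 stretch. At Efna5 the promoter stretch averaged 1.08 ± 1.37 over 44 probes and a stretch deep inside the gene 0.47 ± 1.26 over 43. At Epha5 the promoter averaged 0.12 ± 1.19 over 45 probes and the inside stretch -0.34 ± 0.67 over 29. At Sema4g the promoter averaged -0.07 ± 1.55 over 36 probes and the second stretch -1.32 ± 1.38 over 15, the lowest stretch of the 7 genes. Slit2 averaged 0.42 ± 1.38 over 41 promoter probes and 0.18 ± 0.52 over 12 probes of an intragenic stretch that the array annotates with mmu-mir-218-1, a microRNA gene hosted by Slit2. Slit3 averaged 0.53 ± 1.46 over 43 promoter probes and 0.26 ± 1.87 over 11 inside. Sema3f (-0.09 and -0.11) and Sema6d (0.19 and 0.42, both stretches holding promoter probes) differed less between stretches. In the first 5 the promoter stretch had the higher mean, by less than the SD over probes in each.

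CpG content of the probes was a feature the choice of genes did not use. The 17 genes with a mean of at least 0.5 had a median of 2.04 CpG per 100 probe bases (range 1.08 to 3.16), the 19 between 0 and 0.5 had 1.52 (0.94 to 3.72) and the 19 below 0 had 1.35 (0.47 to 2.21). Spearman's rho between mean ratio and CpG was 0.37 over the 55 genes and 0.19 over all genes, where genes share a slide and base composition, and it is given as a description. Efnb2, with 3.16, was among the high genes and Sema6b, with the most CpG at 3.72, averaged 0.10 ± 1.17 over 24 probes. Sema4d had 2.21, above the median of the high genes, so that the ranges overlapped widely. Probe GC content was 43.5%, 45.4% and 46.3% in the median of the same 3 groups.

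Other gene lists on the same arrays give the scale. The 91 other axon guidance genes (of 101 listed names, cell adhesion molecules, Wnt and cytoplasmic signalling genes among them) had 1 gene with a mean of at least 1, 0 with one of -1 or less, 3 long regions (3.30%) and a median of 0.12. Near the start 13 of 84 were at or above 1 (15.5%). The one at or above 1 was Fzd3, a Wnt receptor, at 1.06 ± 0.70 over 9 probes, and the lowest were Nck2 at -0.88 ± 1.92 over 34 and Chn2 at -0.83 ± 1.35 over 40. The 36 growth factor receptor tyrosine kinases had 2 means past 1 and 2 past -1, a median of 0.10, and 7 long regions (19.4%), and near the start 10 of 34 genes past 1 (29.4%), led by Pdgfra at 1.66. The 77 neurotransmitter receptors had 1 past 1, Grin2a at 1.11, 4 long regions (5.19%), a median of 0.01, and near the start 14 of 75 (18.7%). The Hox genes, known Polycomb targets, had 27 of 33 past 1, 27 long regions (81.8%), a median of 1.41, and near the start 29 of 33 (87.9%). The 55 genes thus lay far below the Hox genes by both measures, and their share of genes with a long region, 14.5%, was below that of the receptor tyrosine kinases.

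**Figure D5:**
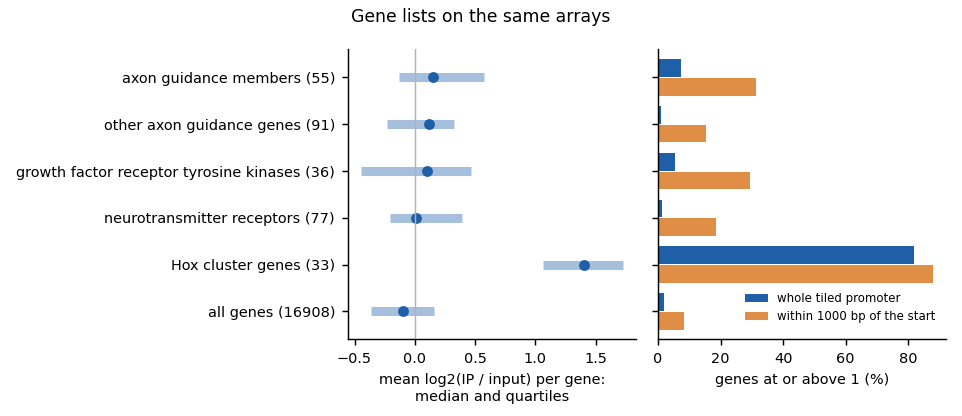
Left, median and quartiles of the gene means (log2 ratio of IP over input DNA, x axis) for the 55 genes, 4 other lists and all genes. Right, percentage of genes at or above 1 over the whole tiled promoter (blue) and within 1000 bp of the start (orange), 7.27% and 31.5% for the 55 genes against 1.99% and 8.2% for all genes.

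Ntn3 and Ntn5 were on the arrays under the older names Ntn2l and Gm484 and so were not among the 55. They averaged -0.68 ± 1.47 over 36 probes and -0.83 ± 1.28 over 37, with no high run, unlike Ntn1 and Ntn4. Of the 4 measured netrins, 2 thus lay above 0 and 2 below.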

How the data were processed

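The labels' numbering of the arrays was read as slides, since the array files name different designs. The authors' scanner files come from Agilent Feature Extraction (version 9.1.3.1 in their headers) and hold processed signals as intensity values after background subtraction and dye normalization, per the file headers, and a log10 ratio of red over green, per the file headers. A deposited series table holds log2 ratios of mean signals, used as an alternative. Genome build: not given in the sources used here.

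From the deposited intensity values, log2 of IP over input signal was computed per probe, control spots and outlier flags (141 and 17 probes) were left out, and the median probe of each slide (0.23 and 0.16) was subtracted. Gene values are means over at least 3 probes. Neighbouring region probes lay under 1000 bp apart. Slide 2 gives no distances, so its starts were taken as the boundary of promoter and inside probes. Over 7399 genes of slide 1 this boundary and the stated start differed by 51 bp in the median. RefSeq windows were matched by symbol. Any member could be named, and full values were given for those at or above 1, the extremes of each family and 5 ligand and receptor pairs as far as measured. Printed start windows follow that rule, but genes without a window holding a probe were passed over after the tables were seen. The procedure was tested on simulated data, in which all probes of a gene were shifted alike over independent probe noise. That setting did not cover signal over part of a promoter or floor probes. Tools were Python 3.11.15, pandas 2.3.3, R 4.3.3 and limma 3.58.1 (normexp with offset 50, and loess). Members and lists were chosen with earlier results of these data known. Alternatives are given in the closing section.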

Additional observations from a re-analysis of the deposited data

How the results depend on the processing

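Each value rests on 1 array, so spread between arrays is unknown, and floor probes limit the upstream stretches most. The count of 4 genes at or above 1 became 7 without centring, 17 at a threshold of 0.5 and 0 at 1.5, and 17 within 1000 bp of the start on both slides (an alternative chosen after seeing the data). Of all genes, 2.99%, 7.62%, 0.651% and 8.2% were called under these settings. Over the other 9 settings the count was between 3 and 5, and the share of all genes between 1.93% and 2.64%. The median of 0.15 became 0.35 with normexp, 0.38 without centring, 0.35 with the deposited series table, 0.28 after correction for probe GC and 0.58 within 1000 bp of the start, and was between 0.06 and 0.22 over the other 6. The same settings put the median of all genes at 0.01, 0.10, 0.02, -0.05 and 0.03, where it was -0.10, so part of these shifts is shared by all genes. On slide 1 alone, the window of 1000 bp gave 7 genes and a median of 0.56, against 1 and 0.20. The shares of all genes of that slide called were 7.1% with the window and 1.63% without it. The count of 8 long regions became 17 with normexp, 14 with loess, 13 without centring, 16 with the series table, 18 at a minimum of 1000 bp, 3 at 3000 bp, and 17 when high probes were joined across lower ones. That joined form was computed first, and consecutive probes were taken as the definition after its counts over all genes had been seen. Over the other 4 settings it was between 6 and 11. Under the same settings 4.22%, 3.77%, 4.18%, 4.0%, 8.26%, 1.41% and 4.57% of all genes had such a region. Nrp2, Sema6a and Ntn1 were at or above 1 in 12 of 12 settings and Ntn4 in 11 of 12, with a lowest value of 0.93. Of the single-gene values under alternatives, 602 moved by less than the SD over probes, 1 moved by more (Sema4g, 1.23 within 1000 bp of the start) and 0 changed sign while called. That SD is of single probes and is wide beside a mean over many, so these counts do not show that the means are stable. Robo2, for example, ran between -0.46 and 1.23 over its settings and Unc5c between 0.24 and 1.35. With the arrays sharing 0 probes, no array could be left out. No paired analysis was possible because there is 1 group and no result comes from a test.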
